A study of Mus musculus with 8 samples.

Results

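The mouse Eif4a1 gene sits in a crowded stretch of chromosome 11, and 10 of the genes closest to it were followed in B cells that carried its conditional knockout allele. The genes were Senp3, Cd68, Mpdu1, Fxr2, Sat2, Wrap53, Tnfsf12, Tnfsf13, Polr2a and Zbtb4. They were chosen for their position, with no measured value in the rule but with earlier results of these data known. They are 10 of 53242 genes in the deposited tables. Other genes of this stretch, such as Trp53 at 75.1 kb from Eif4a1, are not among them. The question was whether the level of RNA from the neighbours of the targeted gene differed between genotypes. Splenic B cells of Eif4a1fl/fl CD23-cre mice (4A1 KO) and Eif4a1+/+ CD23-cre mice (control) were activated for 24 h on CD40LB cells, fibroblast feeders that provide CD40 ligand and BAFF, in medium with IL4 at 40 ng/ml, and RNA was sequenced from 4 mice of each genotype. The mice were 8 to 12 weeks old on a C57BL/6 background. Both genotypes carried CD23-cre, which according to the paper deletes floxed Eif4a1 in immature B cells of the spleen. The recombinase was thus shared, and the floxed allele was present in 4A1 KO alone.

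In the targeted allele loxP sites lie on both sides of exons 2 to 4 of Eif4a1, which the annotation used here places at chr11:69560959-69561802 (GRCm39, minus strand) for the transcript given in the methods. The allele was made in embryonic stem cells and backcrossed to C57BL/6 over many generations, which shortens the flanking DNA that stays with it, and the control mice did not carry it. Deletion of the exons, loss of the EIF4A1 protein and DNA that travelled with the allele on chromosome 11 therefore cannot be told apart by this design. Replicates 1 and 3 were male and replicates 2 and 4 female. Replicates 1 and 2 were batch A and replicates 3 and 4 batch B. Replicate 1 of both genotypes was left out of the study's comparisons because of low cell viability, so fold changes are from replicates 2 to 4 (3 libraries per genotype), and the values of all 8 libraries are shown. The p-values measure the spread between these libraries.

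EIF4A1 is an RNA helicase of the EIF4F complex that unwinds the 5′ ends of mRNAs so that ribosomes can load, and a conditional allele removes it only where Cre is active. Genes that stand close together can share regulatory DNA, run into each other when transcripts read through, or come from the same founder chromosome after targeting, which is why the RNA of neighbours is of interest beside a knockout. The neighbours are not known for a common function. They include a SUMO protease, a lysosomal membrane protein, a factor of glycosylation, an RNA-binding protein and a relative of a polyamine acetyltransferase. The others are a telomerase cofactor, a pair of TNF ligands, the largest subunit of RNA polymerase II and a reader of methylated DNA.

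The annotated order along the chromosome, from lower to higher coordinates, was Wrap53, Sat2, Fxr2, Mpdu1, Cd68, Eif4a1, Senp3, Tnfsf13, Tnfsf12, Polr2a and Zbtb4. Of the 10 neighbours, 7 were on the minus strand with Eif4a1 and 3 (Sat2, Fxr2 and Zbtb4) were on the plus strand. Senp3 (chr11:69563566-69572929) and Cd68 (chr11:69555037-69557067) flanked Eif4a1 (chr11:69557762-69563249) on the same strand. Senp3 ended 316 bases upstream of the start of Eif4a1, and Cd68 began 694 bases downstream of its end. Mpdu1 (chr11:69547523-69553478) was 4.3 kb away, Fxr2 (chr11:69523754-69544123) 13.6 kb and Sat2 (chr11:69507872-69515637) 42.1 kb. On the other side, Tnfsf13 (chr11:69573403-69576610) was 10.2 kb away, Tnfsf12 (chr11:69577076-69586928) 13.8 kb and Polr2a (chr11:69624820-69649468) 61.6 kb. Wrap53 (chr11:69452580-69471151) at 86.6 kb and Zbtb4 (chr11:69656726-69674849) at 93.5 kb were the farthest.

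The 250 bases upstream of 4 genes are shown, read from the GRCm39 genome from the outermost annotated start: Eif4a1, because its window fills most of the gap to Senp3, Cd68, as the closest gene on the other side, and Fxr2 and Polr2a, the 2 neighbours called as different between genotypes below. They are written 5′ to 3′ on the strand of the gene, and capitals mark a GC box (GGGCGG), a match to CCAAT (the CCAAT box), a TATA box (TATAAA) or an E-box (CACGTG), each searched on both strands. None of the marked matches overlaps another.

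Eif4a1 (chr11:69563250-69563499, minus strand): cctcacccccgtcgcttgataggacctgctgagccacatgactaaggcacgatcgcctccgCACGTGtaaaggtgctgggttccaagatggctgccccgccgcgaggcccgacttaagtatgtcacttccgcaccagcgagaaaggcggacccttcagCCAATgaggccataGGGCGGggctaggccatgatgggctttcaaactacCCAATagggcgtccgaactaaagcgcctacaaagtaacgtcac

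Cd68 (chr11:69557068-69557317, minus strand): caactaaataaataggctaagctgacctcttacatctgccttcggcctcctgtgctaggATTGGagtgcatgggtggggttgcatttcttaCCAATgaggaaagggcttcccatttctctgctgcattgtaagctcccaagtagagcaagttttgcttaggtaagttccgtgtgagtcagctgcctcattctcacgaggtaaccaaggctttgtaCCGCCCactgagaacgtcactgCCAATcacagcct

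Fxr2 (chr11:69523504-69523753, plus strand): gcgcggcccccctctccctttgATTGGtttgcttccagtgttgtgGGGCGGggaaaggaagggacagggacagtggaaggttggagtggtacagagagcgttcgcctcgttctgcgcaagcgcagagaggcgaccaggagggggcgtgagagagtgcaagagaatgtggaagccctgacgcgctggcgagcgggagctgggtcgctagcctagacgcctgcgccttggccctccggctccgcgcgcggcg

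Polr2a (chr11:69649469-69649718, minus strand): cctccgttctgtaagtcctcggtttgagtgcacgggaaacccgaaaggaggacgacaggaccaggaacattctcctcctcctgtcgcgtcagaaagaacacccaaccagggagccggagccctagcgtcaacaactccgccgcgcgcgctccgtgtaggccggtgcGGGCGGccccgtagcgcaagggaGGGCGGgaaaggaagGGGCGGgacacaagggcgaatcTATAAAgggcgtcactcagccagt

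The windows of several neighbours were rich in G and C, whether the gene was called or not. The Zbtb4 window, not shown, had the highest share at 67.2%. The Fxr2 window was 66.4% GC with 23 CpG dinucleotides and the Polr2a window 63.2% GC with 24, against medians of 51.2% and 6 over the same window of 21603 coding genes. Of the Polr2a window, 202 bases lay in annotated exons of a gene on the other strand. The Eif4a1 window was 58.8% GC with 18 CpG, held no annotated exon and lay wholly within the 316 bases that separate it from Senp3. The Cd68 window was 49.2% GC with 5 CpG. Letters matching GGGCGG occurred in all 4 windows and in 30.2% of all windows, and 3 of the 4 held CCAAT, which 35.9% of all windows held. TATAAA occurred in the Polr2a window and in 12.5% of all windows, and CACGTG in the Eif4a1 window and in 5.70% of all windows. Over the windows of the 10 neighbours, 5 held GGGCGG (Fxr2, Cd68, Tnfsf12, Polr2a and Zbtb4) and 5 held the CCAAT box (Wrap53, Fxr2, Cd68, Senp3 and Tnfsf12). These matches are descriptions of the letters and not evidence of a bound factor.

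Each library held between 31727557 and 43210858 counts on genes, and the 6 libraries compared held at least 38488341. CPM are read counts scaled to library size after TMM normalization. Without the TMM factor, 3 counts in a library come to between 0.0694 and 0.0946 CPM. A gene was called when edgeR's quasi-likelihood test gave a Benjamini-Hochberg adjusted p under 0.05 over all genes tested and the absolute log2 fold change exceeded 0.5. Of 14218 genes tested, 25.3% were called, 11.6% as increased in 4A1 KO and 13.7% as decreased, and 53.0% passed the adjusted p alone.

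Eif4a1 itself was lower in every 4A1 KO library. It stood at 815, 746, 941 and 889 CPM in control replicates 1 to 4 and at 593, 559, 642 and 689 CPM in 4A1 KO. The groups did not overlap, but most of the signal remained, at a level 0.735 times that of control. The log2 fold change was -0.44 (standard error 0.05, adjusted p = 1.15e-04). The fold fell short of the threshold for a call. The counts pool every exon of the gene, so they do not separate the exons between the loxP sites from the others, and in bulk libraries fewer expressing cells and less RNA per cell cannot be told apart.

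Of the 10 neighbours, 7 passed the filter on low counts. Among these 7, 6 passed the adjusted p, of which 5 were higher and 1 was lower in 4A1 KO, against 53.0% of all genes tested. Only Fxr2 and Polr2a were called, both as increased, which is 28.6% of the 7 against 25.3% of all genes. The median log2 fold change of the 7 was 0.41, beside 0.01 over all genes tested. For 5 of the 7 (Wrap53, Fxr2, Senp3, Polr2a and Zbtb4) the CPM of the 4 control and 4 4A1 KO libraries did not overlap, and this held for 36.8% of all genes.

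**Figure D1:**
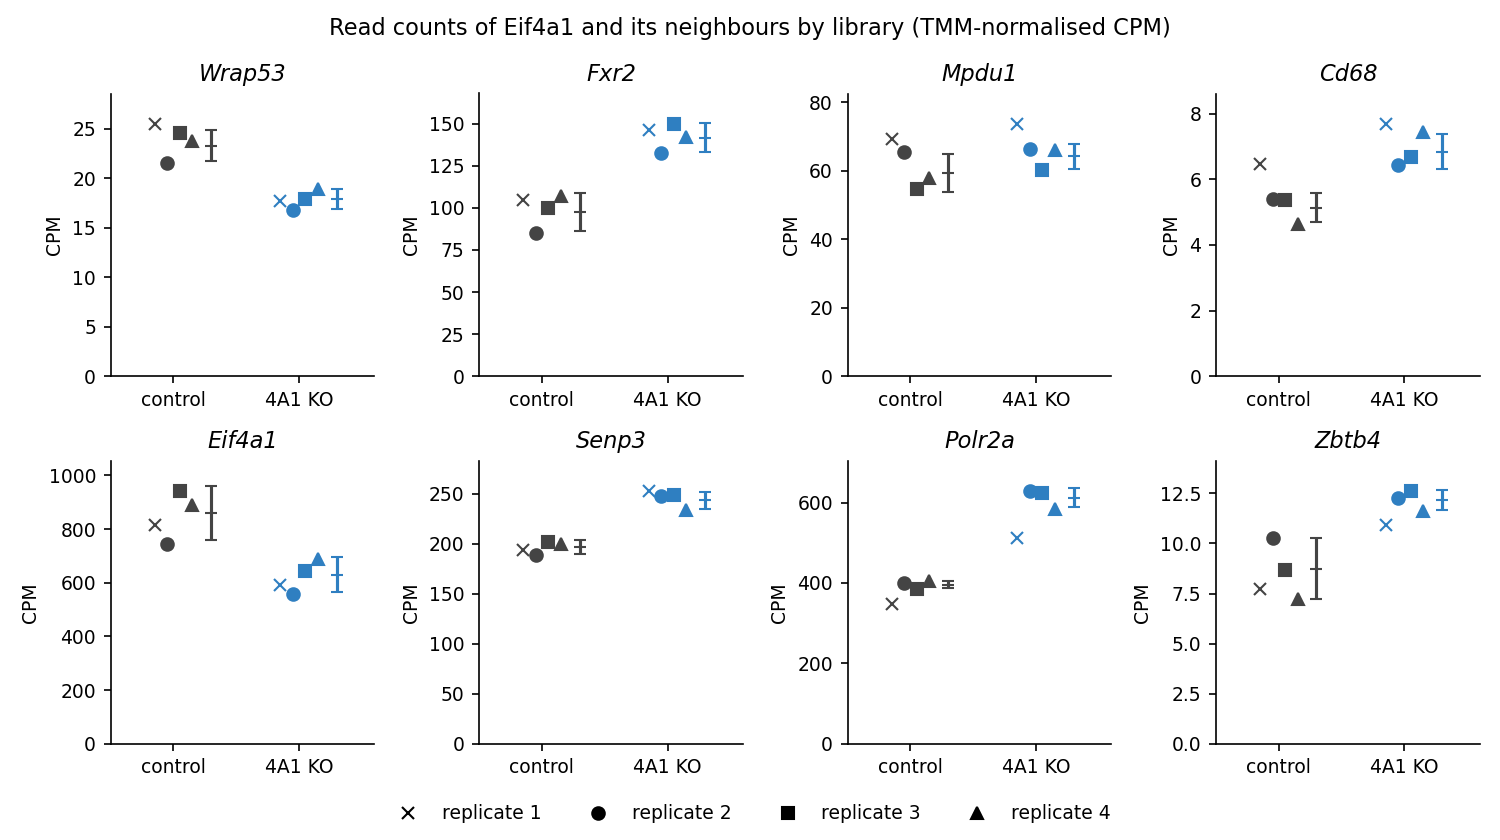
TMM-normalised CPM (vertical axes, each from 0) of Eif4a1 and its 7 tested neighbours in control (grey) and 4A1 KO (blue), with 1 symbol per library and the mean ± SD of replicates 2 to 4 beside them. Eif4a1 and Wrap53 lie lower in 4A1 KO, Fxr2, Senp3, Polr2a and Zbtb4 lie higher, and the libraries of Mpdu1 and Cd68 overlap.

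Senp3 and Cd68, the genes on either side, are the first that transcription into or out of Eif4a1 would meet. Senp3 encodes a nucleolar protease that removes SUMO2 and SUMO3 from proteins, including factors of ribosome assembly. It was measured at 194, 189, 201 and 200.02 CPM in control replicates 1 to 4 and at 253, 248, 249 and 234 CPM in 4A1 KO. Every 4A1 KO library was above every control library, by a margin that was small beside the level. The means were 197 ± 6.62 and 244 ± 8.41 CPM (SD, n = 3). The log2 fold change was 0.31 (standard error 0.05, adjusted p = 7.22e-04 by edgeR), below the fold threshold for a call. The exact permutation test over all 8 libraries gave p = 0.0286, two-sided, the smallest that 4 against 4 libraries allow.

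Cd68 encodes a heavily glycosylated protein of late endosomes and lysosomes and is a common marker of macrophages. It had the fewest reads of the tested neighbours, at 6.46, 5.40, 5.37 and 4.63 CPM in control and 7.69, 6.42, 6.67 and 7.43 CPM in 4A1 KO, from 200 to 318 counts per library. The groups overlapped, because control replicate 1 was just above 4A1 KO replicate 2. The log2 fold change was 0.41 (standard error 0.13, adjusted p = 0.0235 by edgeR) and the exact permutation p over 8 libraries was 0.0571. The difference rested on replicate 4, where the pair differed by 0.68 against 0.25 to 0.31 in the other pairs, and without that replicate it was 0.28 with an adjusted p of 0.157. Without replicate 2 it was 0.5015 and called. DESeq2 gave an adjusted p of 0.0868. Macrophage markers were measured beside Cd68. Their sum over 12 genes was 4.28 to 8.31 CPM in control and 7.40 to 9.60 CPM in 4A1 KO, 11 of the 12 averaged under 1 CPM, none was at 0 in all libraries, 3 were tested, and only Adgre1, which encodes F4/80, was called (log2 fold change 0.62, adjusted p = 0.00687). Adgre1 alone gave most of that sum, at 3.36 to 6.93 CPM in control and 5.98 to 7.93 CPM in 4A1 KO. The B cells had been purified from spleen with an isolation kit before culture, a step meant to remove macrophages, and the part of macrophages in the difference of Cd68 was not tested.

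Downstream of Cd68 lie Mpdu1 and, tail to tail with it on the plus strand, Fxr2. Mpdu1 encodes a membrane protein of the endoplasmic reticulum that is needed to use mannose linked to dolichol phosphate as a donor for glycans. It stood at 69.3, 65.6, 54.6 and 58.0 CPM in control and 73.8, 66.5, 60.1 and 66.1 CPM in 4A1 KO. The groups overlapped, and the 4A1 KO library was above the control library of the same number in 4 of 4 pairs, by 0.02 to 0.19 on the log2 scale. The log2 fold change was 0.12 with an interval of 2 standard errors from -0.0035 to 0.24 (adjusted p = 0.133 by edgeR, exact permutation p = 0.343), so a rise of the size seen in Fxr2 lay outside the interval and no difference at all lay just inside it.

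Fxr2 encodes a member of the fragile X family of RNA-binding proteins, which associate with polyribosomes. It was at 104.97, 85.0, 99.8 and 107 CPM in control replicates 1 to 4 and at 146, 133, 150 and 142 CPM in 4A1 KO. The lowest 4A1 KO library was well above the highest control library. The means were 97.4 ± 11.4 and 142 ± 8.59 CPM (SD, n = 3), and Fxr2 rose by 0.54 on the log2 scale (standard error 0.06, adjusted p = 8.13e-05 by edgeR), 1.46 times the control level. The value was close to the fold threshold, and without replicate 2 it came to 0.4997, so the call was lost by the size of the change while the direction stayed.

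On the far side of Sat2 and Trp53, Wrap53 was the only tested neighbour that was lower in 4A1 KO. Its protein carries small Cajal body RNAs and the telomerase RNA to Cajal bodies, and the gene lies head to head with Trp53, with which it shares 263 exonic bases on opposite strands. It was at 25.5, 21.5, 24.5 and 23.8 CPM in control and at 17.7, 16.8, 17.9 and 18.9 CPM in 4A1 KO. The highest 4A1 KO library was below the lowest control library. The log2 fold change was -0.38 (standard error 0.08, adjusted p = 0.0029 by edgeR, exact permutation p = 0.0286), below the fold threshold. Trp53, which encodes the p53 tumour suppressor and is transcribed away from the same start region, was not called, at -0.04 on the log2 scale (standard error 0.05, adjusted p = 0.467).

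Polr2a had the largest change of the tested neighbours. It encodes the catalytic subunit of RNA polymerase II, with the C-terminal repeat domain whose phosphorylation follows the transcription cycle. Its level was 347, 399, 385 and 404 CPM in control replicates 1 to 4 and 513, 628, 624 and 585 CPM in 4A1 KO. Replicate 1 was the lowest library of both genotypes, and the groups were separated by more than the range within either control or the compared 4A1 KO libraries. The means were 396 ± 9.70 and 612 ± 23.6 CPM (SD, n = 3), and Polr2a rose by 0.63 on the log2 scale (standard error 0.05, adjusted p = 2.03e-05 by edgeR), 1.55 times the control level. Across 10 other ways to fit the counts it lay between 0.60 and 0.67 and was called each time.

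Zbtb4 encodes a zinc finger protein of the Kaiso group that binds methylated CpG and represses transcription. It was at 7.74, 10.3, 8.70 and 7.22 CPM in control and 10.9, 12.3, 12.6 and 11.6 CPM in 4A1 KO. All 4A1 KO libraries were above all control libraries, although control replicate 2 came within 1 CPM of them. The log2 fold change was 0.49 (standard error 0.11, adjusted p = 0.00525 by edgeR, exact permutation p = 0.0286), just under the fold threshold. It was 0.39 without replicate 4, and it was called with upper quartile scaling (0.51) and without replicate 2 (0.61).

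**Figure D2:**
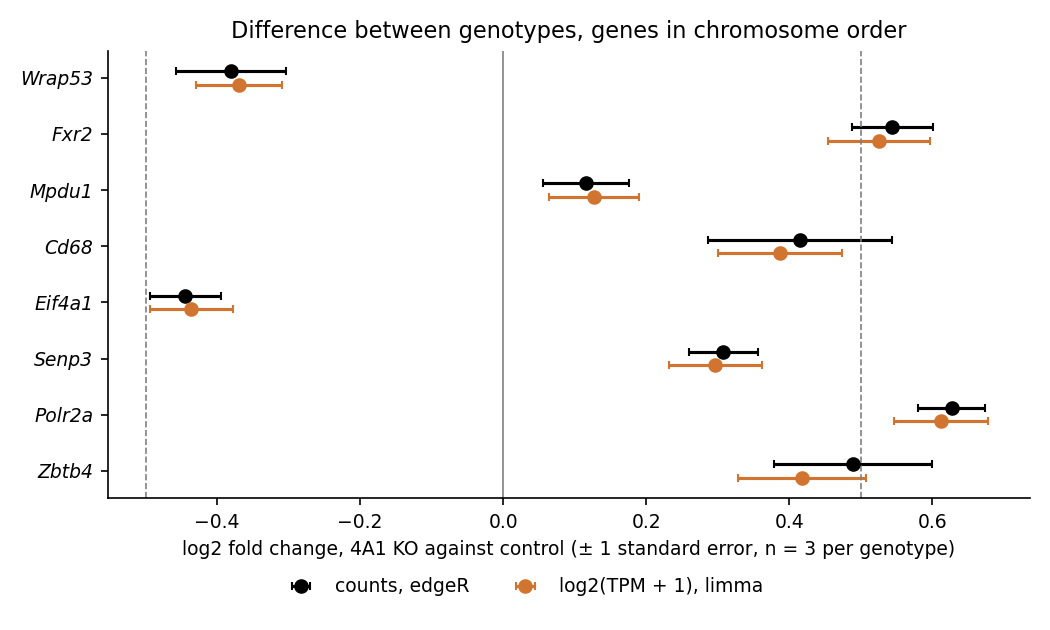
Log2 fold change of 4A1 KO against control (horizontal axis, ± 1 standard error, n = 3 per genotype) of Eif4a1 and its tested neighbours in chromosome order, from counts (black) and from TPM (orange). Dashed lines mark 0.5 in either direction; Fxr2 and Polr2a lie beyond the upper line in both measures.

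The remaining neighbours, Sat2, Tnfsf13 and Tnfsf12, gave 3 counts or fewer in every library. Sat2, a relative of the polyamine acetyltransferase SAT1, had 0 counts in each of the 8 libraries, which allows up to 0.0694 to 0.0946 CPM by counting error alone. Tnfsf13, which encodes APRIL, a ligand of the B cell receptors TACI and BCMA, had at most 1 count in any library. Tnfsf12, which encodes TWEAK, had 0 counts in 7 libraries and 3 in 4A1 KO replicate 4. Both share exons on the same strand with the read-through gene Tnfsfm13, over 1252 of 1906 exonic bases of Tnfsf13 and 980 of 1872 of Tnfsf12, and reads in the shared exons cannot be assigned to one of them. Tnfsfm13 had at most 4 counts. No fold change is given for these genes, and a difference between genotypes was not detectable at this depth.

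The deposited TPM, which also divide by transcript length and so let levels of different genes be set side by side, gave similar differences. Of the 7 tested neighbours, limma on log2(TPM + 1) called Fxr2 (0.53, adjusted p = 0.00654) and Polr2a (0.61, adjusted p = 0.00443), against 20.0% of all 12976 genes tested, and no fold change of Eif4a1 or a neighbour differed from that in counts by more than 0.0714. The mean TPM in control ran from Senp3 (167 ± 9.55, SD, n = 3) through Polr2a (111 ± 4.53), Mpdu1 (104 ± 7.32), Fxr2 (64.1 ± 8.38), Wrap53 (23.2 ± 1.76) and Cd68 (8.14 ± 0.358) to Zbtb4 (2.15 ± 0.378). Polr2a and Mpdu1 overlapped between libraries of control, and the other adjacent genes in this order did not. In 4A1 KO the order was the same, at 205 ± 4.48 TPM for Senp3, 169.6 ± 3.64 for Polr2a, 114 ± 7.10 for Mpdu1, 92.3 ± 6.68 for Fxr2, 17.8 ± 1.35 for Wrap53, 10.98 ± 1.07 for Cd68 and 3.19 ± 0.0978 for Zbtb4, with no adjacent pair overlapping. Cd68 did not overlap between the genotypes in TPM, at 7.75 to 9.91 TPM in control and 10.02 to 12.1 TPM in 4A1 KO. In TPM the adjusted p rose above 0.05 for Senp3 without replicate 2 or 3 (highest 0.0918), for Zbtb4 and Cd68 without replicate 3 or 4 (highest 0.0872 and 0.0705) and for Wrap53 without replicate 3 (0.0568). Fxr2 fell short of the fold threshold in TPM without replicate 2 (0.48).

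Inside Eif4a1 itself lie 3 annotated snoRNA genes on the same strand, so that reads of unspliced Eif4a1 RNA cannot be told apart from theirs. Gm22988, in intron 4 beyond the last exon flanked by the loxP sites (chr11:69560461-69560604), had 92, 36, 69 and 58 counts in control and 32, 19, 30 and 36 in 4A1 KO. In CPM the groups overlapped, with 0.888 in control replicate 2 and 1.01 in 4A1 KO replicate 1. It fell by 0.89 on the log2 scale (standard error 0.23, adjusted p = 0.0107 by edgeR), but the adjusted p was 0.111 with DESeq2, 0.0862 without replicate 3 and 0.0558 without the replicate block. The same gene was listed at 0.001564 TPM or less in every library, so the tables do not measure it alike. Gm25835 in intron 5 and Gm24029 in intron 9 had log2 fold changes of 0.63 (adjusted p = 0.0534) and 0.21 (adjusted p = 0.374) and were not called. The distance of the loxP sites from these genes is not given in the sources used here.

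Calls were also counted in wider windows. Within 100 kb of Eif4a1, 11 genes were tested, which are the 7 neighbours, Trp53 and the 3 snoRNA genes, and 3 were called (27.3%, against 25.3% of all genes). Within 250 kb, 44 genes of the tables were annotated, 11 of them without a count in any library, and 22 were tested. Of these 22, 6 were increased and 3 decreased, 40.9%, with a median log2 fold change of 0.26. Within 500 kb 16 of 39 were called (41.0%, 9 increased and 7 decreased, median 0.12). Within 1 Mb 25 of 74 tested genes were called (33.8%, 14 increased and 11 decreased, median 0.09), and within 10 Mb 80 of 276 (29.0%, 41 increased and 39 decreased, median close to 0). Farther than 10 Mb away on chromosome 11, 237 of 838 were called (28.3%, median -0.03). The share called did not fall steadily with distance, since it was lower within 100 kb than within 250 or 500 kb, and the shares were not tested against each other.

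**Figure D3:**
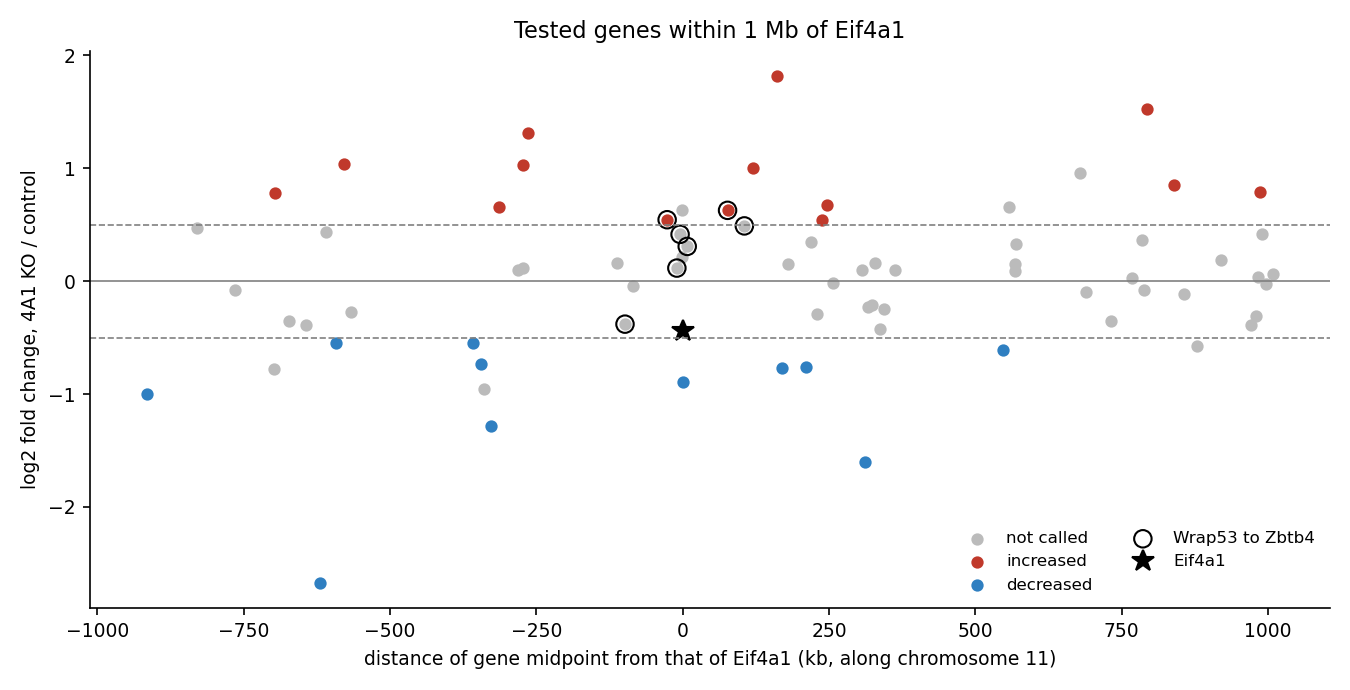
Log2 fold change of 4A1 KO against control (vertical axis) of the 74 genes tested within 1 Mb of Eif4a1, by the distance of their midpoints along chromosome 11 in kb (horizontal axis, positive towards Zbtb4). Red and blue mark increased and decreased genes, rings mark the tested neighbours and the star Eif4a1; both colours occur on both sides.

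Beyond the 10 neighbours and Gm22988, 6 genes within 250 kb were called, all past Zbtb4. Nlgn2, which encodes a postsynaptic adhesion protein of inhibitory synapses, had the largest change, from 3.75, 2.49, 3.90 and 3.75 CPM in control to 12.8, 11.5, 13.8 and 10.3 CPM in 4A1 KO. Its groups stood far apart, and it rose by 1.82 on the log2 scale (standard error 0.14, adjusted p = 2.42e-05 by edgeR) at 150.7 kb from Eif4a1. Chrnb1, which encodes the beta subunit of the muscle acetylcholine receptor and borders Zbtb4, rose from 1.49 to 2.95 CPM (1.00, adjusted p = 0.00327). Gps2, a subunit of the NCoR corepressor complex, rose from 78.5 to 126 CPM (0.68, adjusted p = 2.52e-05), and Neurl4, which encodes a centrosomal protein, from 66.2 to 95.6 CPM (0.54, adjusted p = 1.39e-04). Tmem256 fell from 17.6 to 10.4 CPM (-0.77, adjusted p = 1.91e-04). Kctd11, which encodes an adaptor of a ubiquitin ligase, fell from 1.98 to 1.16 CPM (-0.76, adjusted p = 0.0131), a call that was lost with DESeq2 (adjusted p = 0.0919) and without replicate 3 (0.0841). Eif5a, which encodes a translation factor and borders this stretch at 244.2 kb, was not called, at 2048 and 2021 CPM (-0.02, adjusted p = 0.724).

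Paralogs and functional partners of the neighbours that lie elsewhere in the genome were measured in the same fit, as 47 genes of which 45 were tested. Of the 45, 5 were increased, 1 was decreased and 39 were not called, with a median log2 fold change of 0.02. Over all genes tested 11.6% were increased and 13.7% decreased, so the share of these genes called was below that of all genes. Of the 12 other RNA polymerase II subunit genes tested, 0 were called, and 6 passed the adjusted p, a share near the 53.0% of all genes. These 6 were lower in 4A1 KO. The log2 fold changes of the 12 ran from -0.47 (Polr2d) to 0.05 (Polr2l), all below the 0.63 of Polr2a. In the fragile X family, Fmr1 had -0.29 (adjusted p = 0.00143) and Fxr1 0.09 (adjusted p = 0.180), where Fxr2 had 0.54. Differences between members of a family were not tested.

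Of the SUMO proteases beside Senp3, 1 of 6 was increased, Senp2 at 0.82 (standard error 0.06, adjusted p = 2.27e-05), which also removes SUMO from proteins at the nuclear pore, and 3 were higher and 1 lower at the adjusted p. Of 9 other genes that make or use dolichol phosphate mannose, 3 were increased and 0 decreased, where Mpdu1 was not called and 11.6% of all genes tested were increased. With 9 genes the count is small, and it was not tested. They were Dpm3 (0.71), a subunit of the enzyme that makes the donor, and the mannosyltransferases Alg3 (0.63) and Pigm (0.51). The telomerase and Cajal body genes beside Wrap53 had 0 of 6 called, with 3 higher and 0 lower at the adjusted p, where 53.0% of all genes passed it. Their difference from Wrap53 was not tested. Of the relatives of Cd68, 3 lysosomal membrane genes were tested and 0 called, with Lamp1 at 0.15 (adjusted p = 0.0228). Zbtb33 (0.33) and Zbtb38 (0.49), relatives of Zbtb4, were higher at the adjusted p and not called.

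Of 5 genes for BAFF and for receptors of TWEAK, APRIL and BAFF, 4 were tested, 1 was increased and 1 decreased, a count too small to set against the 11.6% increased and 13.7% decreased of all genes. Tnfrsf13c, which encodes the BAFF receptor, fell from 312 to 158 CPM (-0.97, standard error 0.08, adjusted p = 3.34e-05), and Tnfrsf12a, the receptor of TWEAK, rose from 1.17 to 2.22 CPM (0.93, standard error 0.22, adjusted p = 0.00607). Tnfrsf13b, which encodes TACI, had -0.38 (adjusted p = 3.50e-04) and was not called. Sat1, the relative of Sat2, was at 19.4 and 18.6 CPM (-0.06, adjusted p = 0.519).

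**Figure D4:**
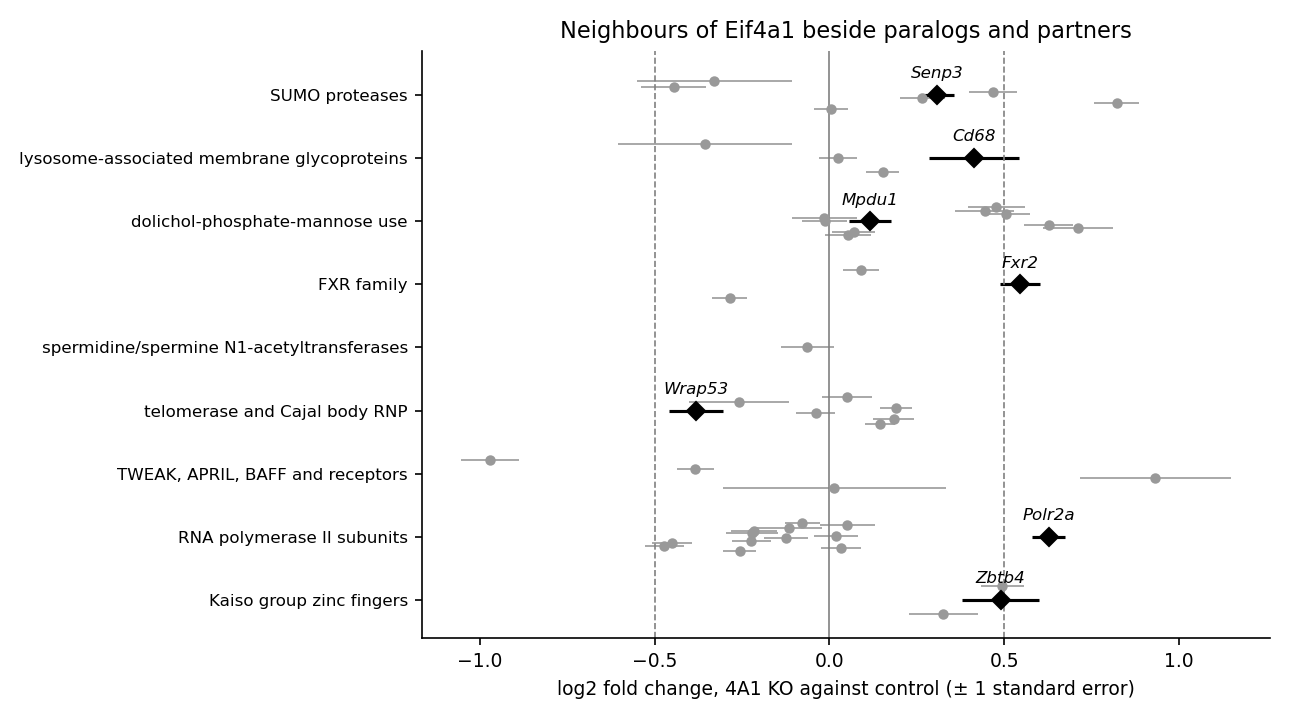
Log2 fold change of 4A1 KO against control (horizontal axis, ± 1 standard error) of the tested neighbours (black diamonds, named) and of 45 tested paralogs and partners elsewhere in the genome (grey), by family. Polr2a lies at 0.63, to the right of the 12 other RNA polymerase II subunits, and Wrap53 at -0.38, to the left of the 6 other telomerase and Cajal body genes.

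The genotype difference of Eif4a1 and of each tested neighbour was also compared between sexes and between batches, as interaction terms over all 8 libraries. The smallest unadjusted p was 0.199 (Eif4a1, by sex), and over 14211 genes 0 passed the adjusted p by sex and 1 by batch. Each combination of sex, batch and genotype held 1 library, and replicate 1 was included. These fits had little power, so equal differences between sexes or batches were not shown. B cell markers were high in every library, at 6640 to 7620 CPM in sum in control and 6980 to 7380 CPM in 4A1 KO over 7 genes, of which 3 were decreased and 0 increased, where 13.7% and 11.6% of all genes were. Those that fell were Cd79b (-0.89) and Cd79a (-0.67), which encode the signalling chains of the B cell receptor, and Cd22 (-0.76), an inhibitory coreceptor. The largest share of the sum came from Fcer2a, which encodes CD23 and was higher without being called (3480 to 4180 CPM). T cell markers summed to at most 1.11 CPM. The feeder cells had been removed with an antibody to H-2Kd before RNA was prepared. Fibroblast markers, which such cells would bring, summed to 8.96 to 40.3 CPM in control and 13.3 to 24.4 CPM in 4A1 KO, with the highest value in a control library. Of these 8 genes 4 were tested, 1 was increased (Fn1, 0.86) and 1 decreased (Col3a1, -1.57), where 11.6% and 13.7% of all genes were. Col1a1 was the highest, and their part in the neighbours' levels was not tested. Dendritic cell markers summed to 21.0 to 28.4 CPM in control and 27.8 to 43.5 CPM in 4A1 KO. Most of that sum was Zbtb46 (20.7 to 33.2 CPM, increased), while Flt3 was decreased (-1.89), and their part was not tested either.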

How the data were processed

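RNA of 4 control and 4 4A1 KO libraries was measured. The authors trimmed the reads with Trim Galore 0.6.6, mapped them to GRCm39 with HISAT2 2.1.0, counted them in SeqMonk over merged isoforms with strand, and deposited raw counts per gene without normalization. They deposited TPM made with StringTie 2.1.1 from the same alignments. How reads mapping to several places were counted is not given in the sources used here. Each table column carries a sample title, and 0 per-sample columns were left unused.

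The counts were fitted with edgeR 4.0.16 in R 4.3.3 (TMM, filterByExpr by genotype, quasi-likelihood test, batch, sex and genotype as terms) on replicates 2 to 4. In these 6 libraries batch and sex equal the replicate number as a block. Same-numbered libraries deviated together from their genotype means (r 0.47 to 0.63 across genes, against -0.478 to 0.0247 for other pairs). Subtracting a mean of so few libraries lowers r of the other pairs when same-numbered ones agree, so this contrast is partly built in. The pairing itself comes from the batch and sex in the labels. CPM shown per library used TMM over all 8. For TPM, limma 3.58.1 was run on log2(TPM + 1) with the same terms, leaving out genes whose mean was under 1 TPM. All tests are two-sided, with Benjamini-Hochberg adjustment over all genes tested. Exact permutation tests used all 8 libraries. Of 53242 genes, 52647 matched GENCODE M39 by identifier, which gave the coordinates. Distances are gaps between gene bodies.

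The neighbours and the lists of paralogs, partners and markers were chosen with earlier results of these data known. Named are Eif4a1, the 10 neighbours, called genes within 250 kb, called paralogs and partners, and the highest marker of a list. Trp53, Eif5a, the uncalled snoRNA genes, Tnfsfm13, Fmr1, Fxr1, Sat1, Lamp1, Zbtb33, Zbtb38, Tnfrsf13b, Polr2d, Polr2l and the called B cell, fibroblast and dendritic markers were named after their values were seen. The methods were tested on simulated data. With 200 changed genes, edgeR recovered 200 with 4 false calls among 14050 genes and made 0 calls among 14076 when none was changed, and limma recovered 200 with 0 false calls among 12937. Recovery of differences near the fold threshold, where Fxr2 and Zbtb4 lie, was not tested. Alternatives were DESeq2's size factors, upper quartile scaling, DESeq2 1.42.0, other filters, a pseudocount of 0.1, no replicate block, all 8 libraries and leaving out each replicate.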

Additional observations from a re-analysis of the deposited data

How the results depend on the processing

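The direction of Eif4a1 and of each tested neighbour did not change under any alternative, in counts or in TPM. Of their values under these alternatives, 128 kept their call or lack of one, 5 were newly called (Zbtb4 4 times and Cd68 once), 3 were no longer called (Fxr2 each time) and 0 reversed. Among those with the same call, the adjusted p alone rose above 0.05 for Cd68 in counts and for Cd68, Senp3, Wrap53 and Zbtb4 in TPM under the settings named beside them. In counts, 2 neighbours were called increased under most settings and 3 with upper quartile scaling, with 2 to 3 when a replicate was left out (3 without replicate 2, which lost Fxr2 and gained Cd68 and Zbtb4), and 0 were decreased under any. In TPM, 1 neighbour was called increased with all 8 libraries, where Fxr2 had 0.49. With a pseudocount of 0.1 there were 3 in TPM, with Zbtb4 at 0.56. Without replicate 2, Zbtb4 was called in TPM at 0.52 and Fxr2 was not. Genes decreased within 250 kb numbered 1 with DESeq2 and 1 to 3 when a replicate was left out, against 3, with the lowest count without replicate 3, which lost Gm22988 and Kctd11. Genes decreased within 1 Mb numbered 6 with DESeq2 and 8 to 10 when a replicate was left out, against 11. Those increased within 1 Mb numbered 10 with DESeq2 and 10 to 12 when a replicate was left out, against 14. With DESeq2 the share of all genes called was lower too (20.7% against 25.3%). Without the replicate block, 2 neighbours were called increased, 6 genes were increased and 2 decreased within 250 kb, and 12 were increased and 9 decreased within 1 Mb. Without it no neighbour changed its call, and 3000 genes were called in all against 3596. DESeq2 called 2847 of 13753 genes, or 20.7%, and without the filter on low counts 3691 of 21402 were called. The low counts of Sat2, Tnfsf12 and Tnfsf13 limit what can be said of them. With every gene above 0 TPM kept in the TPM test, Cd68 had an adjusted p of 0.0684 and Zbtb4 of 0.0649.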

Other observations

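Some genes between 250 kb and 1 Mb from Eif4a1, chosen after their values were seen, changed by more than the 7 tested neighbours. Aurkb, which encodes the kinase of the chromosomal passenger complex in mitosis, fell by 2.67 on the log2 scale at 613 kb (standard error 0.26, adjusted p = 6.17e-05 by edgeR), from 81.5 to 14.7 CPM. Kdm6b, which encodes a histone H3 demethylase, rose from 91.95 to 229 CPM at 253.3 kb (1.32, standard error 0.08, adjusted p = 1.02e-05). Vamp2, which encodes a SNARE protein of vesicle fusion, rose from 31.4 to 64.8 CPM at 574.6 kb (1.04, adjusted p = 1.53e-05), and Chd3, a chromatin remodeller, from 194.5 to 308 CPM at 297.5 kb (0.66, adjusted p = 1.65e-05). Trappc1, a subunit of a vesicle tethering complex, fell from 20.5 to 12.2 CPM at 341.1 kb (-0.74, adjusted p = 1.89e-04). Genes that rose and genes that fell lay side by side in this stretch.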
